A study of Mus musculus with 6 samples.

Results

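Genes that control or mark the bone-resorbing osteoclast were followed in growth plate tissue of mice lacking ATF6a, mice lacking ATF6b and wild-type (WT) mice. They were 10 named genes represented by 15 probes, out of 55681 probes on the array that were not controls, and they were found by matching each probe's RefSeq accession to the gene symbol. Of these, 9 genes entered the tests among 19122 named genes, and Tnfsf11 did not, because its probe was well above background on 1 array only. ATF6a and ATF6b are transcription factors held in the endoplasmic reticulum membrane and released when unfolded proteins build up there.

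The 3 groups were labelled ATF6aKO, ATF6bKO and WT, each with 2 arrays, from untreated male C57BL/6J mice aged 4 weeks. The growth plate, the cartilage between the end and the shaft of a growing long bone, was cut from the tibia by laser microdissection, and the RNA (150 ng) was amplified before labelling. The labels do not give how the alleles were made or whether replicate 1 and replicate 2 were different mice, so every p-value below rests on array-to-array spread alone, which may be technical. The title names the question as the part played by ATF6 in the lengthening of long bones.

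Osteoclasts are multinucleated cells that form from monocyte-lineage precursors when the receptor CSF1R (gene Csf1r) is bound by either of its ligands, CSF1 or IL-34, and the receptor RANK (Tnfrsf11a) is bound by RANKL (Tnfsf11). Osteoprotegerin (Tnfrsf11b) is a soluble decoy that takes up RANKL. At the lower edge of the growth plate, osteoclasts and related cells remove mineralised cartilage as bone replaces it, using the acid phosphatase TRAP (Acp5) and the protease cathepsin K (Ctsk) after cell fusion that needs DC-STAMP (Dcstamp) and OC-STAMP (Ocstamp).

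The 4 knockout arrays lay on 1 slide and the 2 WT arrays on another that was scanned with 1 channel, so slide and genotype cannot be told apart wherever a knockout is set against WT. Between knockout arrays the correlation of log2 intensities over named probes was 0.961 to 0.985, between the WT arrays 0.950, and between knockout and WT arrays 0.823 to 0.889. Between 86.9% and 96.7% of spots on an array lay well above background. At the threshold used, an adjusted p of 0.05 in limma, 42.7% of all genes were called for ATF6aKO against WT and 37.6% for ATF6bKO against WT. These are 8157 and 7190 genes, and the numbers were 4682 for ATF6aKO without its replicate 2, and 3080 and 3795 for ATF6bKO without its replicate 1 or 2. The transcript of Atf6 had a log2 difference of -0.15 in ATF6aKO against WT (adjusted p = 0.498) and -0.21 in ATF6bKO (adjusted p = 0.355), and that of Atf6b had -0.43 in ATF6aKO (adjusted p = 0.138) and -0.54 in ATF6bKO (adjusted p = 0.0824), so neither was lower in its own knockout alone. Where these probes lie relative to the deleted parts is not given in the sources used here, so they do not check the labels. Of the 17 chondrocyte markers, Col2a1, the main cartilage collagen, had log2 intensities of 15.06 and 15.36 in ATF6aKO, 14.51 and 13.25 in ATF6bKO, against 10.88 and 11.15 in WT.

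Both knockouts had less Il34 and more Csf1 signal on its brightest probe than WT. Il34 was 7.95-fold lower in ATF6aKO and 8.40-fold lower in ATF6bKO. Csf1, Tnfrsf11a and Dcstamp were between 1.54-fold and 2.31-fold higher, while the resorption genes Ctsk and Acp5 were high on a single WT array and passed the test in neither comparison. With the adjusted p-value, 4 of 9 genes passed for ATF6aKO against WT (3 higher, 1 lower) and 4 of 9 for ATF6bKO against WT (3 higher, 1 lower), beside backgrounds of 42.7% (20.3% higher, 22.3% lower) and 37.6% (17.3% higher, 20.3% lower), so neither share stood far from that of all genes. Il34 was the 1 gene of the 9 that fell in both knockouts, as 17.9% of all genes did. When WT replicate 1 was left out, 3 rose and 2 fell in ATF6aKO and 3 rose and 1 fell in ATF6bKO, and without WT replicate 2, 2 rose and 3 fell in each. Without ATF6bKO replicate 1 or ATF6bKO replicate 2, 2 of the 9 passed for ATF6bKO. The median log2 difference of the 9 was -0.42 and -0.16, beside -0.03 and -0.05 over all genes, but 1 WT array turned its sign: it was 0.05 for ATF6aKO and -0.14 for ATF6bKO without WT replicate 1, and -0.12 and 0.15 without WT replicate 2. The arrays of knockout and WT did not overlap for 8 of 9 genes in each comparison, where 73.2% of all genes for ATF6aKO and 72.8% for ATF6bKO did not. The 2 comparisons share the WT arrays and are not independent of each other. In such bulk tissue, fewer cells of a type and less RNA per cell cannot be told apart.

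**Figure D1:**
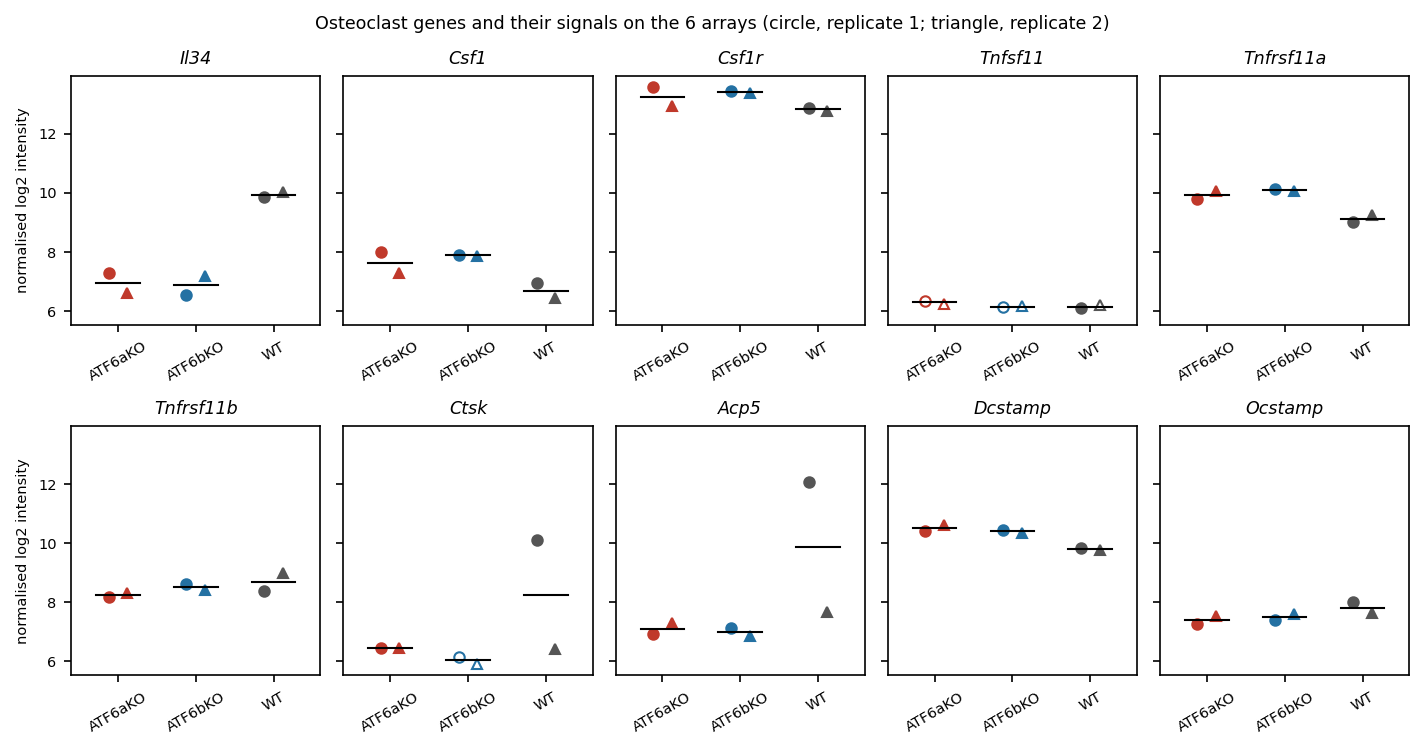
Normalised log2 intensity of each of the 10 genes (1 panel a gene, its brightest kept probe, or the only probe for Tnfsf11) on the 2 arrays of ATF6aKO, ATF6bKO and WT. Circles are replicate 1, triangles replicate 2, bars the group means, and open symbols mark spots not well above background. Il34 lies between 6.55 and 7.29 on the knockout arrays and at 9.88 and 10.02 on the WT arrays, and Ctsk and Acp5 are high on WT replicate 1 alone.

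Il34, an alternative ligand of CSF1R that is best known from skin and brain, had normalised log2 intensities of 7.29 and 6.62 in ATF6aKO, 6.55 and 7.20 in ATF6bKO, against 9.88 and 10.02 in WT. All 4 knockout arrays were below both WT arrays, and the 2 knockouts overlapped each other. The unnormalised spot intensity showed the same order, with 136 and 76 in ATF6aKO, 69 and 101 in ATF6bKO, against 1439 and 1316.5 in WT. The log2 difference was -2.99 ± 0.28 (SE) for ATF6aKO against WT (limma adjusted p = 0.000662) and -3.07 ± 0.28 for ATF6bKO against WT (limma adjusted p = 0.000773). Il34 kept its direction and its call under all 14 alternatives tried in each of these 2 comparisons. Many of them could not move its difference, which stayed at -2.99 and -3.07. They were the mean over probes (Il34 has no other probe), the filters, the variance model, the replicate block and leaving out an array of the other knockout. The 14 are therefore not independent checks. The smallest difference came from the authors' deposited table, at -1.2 for ATF6aKO and -1.15 for ATF6bKO. For knockout arrays its values track the green channel. There the processed signal of Il34 was 2.42 to 3.39 and was not well above background on any knockout array. That of the red channel used here was 32.1 to 85.9.

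Csf1, the other ligand of CSF1R and the main growth factor of the monocyte lineage, is printed on the array by a probe with 10 spots and by 2 probes with 1 spot each. On the 10-spot probe it had log2 intensities of 8.0 and 7.29 in ATF6aKO, 7.91 and 7.88 in ATF6bKO, against 6.94 and 6.44 in WT. Every knockout array was above both WT arrays, but ATF6aKO replicate 2 was only slightly above WT replicate 1. The SD between the repeated spots within an array was 0.061 to 0.139, which is less than the gap between the 2 arrays of ATF6aKO or of WT. Before normalisation the order was not complete, since the mean spot intensity of 123 on ATF6aKO replicate 2 was below the 129 on WT replicate 1. The difference was 0.95 ± 0.27 for ATF6aKO against WT (limma adjusted p = 0.0248) and 1.20 ± 0.27 for ATF6bKO against WT (limma adjusted p = 0.0116).

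The single-spot probes of Csf1 did not show this rise. Probe A_55_P2017914 read 6.23 and 6.49 in ATF6aKO, 6.22 and 6.25 in ATF6bKO, against 6.77 and 6.65 in WT. Its log2 differences were -0.35 and -0.48 (limma adjusted p = 0.126 and 0.0577 over all probes). Probe A_55_P2169669 read 6.56 and 6.68 in ATF6aKO, 6.39 and 6.37 in ATF6bKO, against 6.75 and 6.75 in WT, with differences of -0.13 and -0.37. Both are dim, and neither was well above background on either ATF6bKO array. When the 3 probes were averaged, the Csf1 difference was 0.16 for ATF6aKO and 0.12 for ATF6bKO against WT, and neither passed, so the rise rests on the 10-spot probe. On that probe the call was also lost in ATF6aKO without ATF6aKO replicate 1 (0.60) or WT replicate 2 (0.71), and in ATF6bKO without ATF6bKO replicate 1 (1.19) or ATF6bKO replicate 2 (1.22). The authors' deposited table gave larger differences, of 4.85 for ATF6aKO and 4.8 for ATF6bKO, and so did Feature Extraction's processed signal, with 1.91 and 2.32.

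Tnfsf11, which encodes RANKL, lay near the floor of every array. It had log2 intensities of 6.34 and 6.26 in ATF6aKO, 6.14 and 6.16 in ATF6bKO, against 6.09 and 6.20 in WT. The lowest signal well above background on an array was between 5.67 and 6.22. Its only probe was well above background on WT replicate 1 alone, so no difference in the ligand of RANK was detectable here, and no fold is given.

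Csf1r, the receptor for both CSF1 and IL-34, was read by 3 probes that disagreed in direction. The brightest, A_55_P2025073, had log2 intensities of 13.58 and 12.93 in ATF6aKO, 13.44 and 13.37 in ATF6bKO, against 12.89 and 12.77 in WT. The knockout arrays were above the WT arrays, by 0.42 ± 0.23 for ATF6aKO (limma adjusted p = 0.166) and 0.57 ± 0.23 for ATF6bKO (limma adjusted p = 0.0823), and neither passed. The unnormalised spot intensities of this probe did not show that order. They were 11068 and 7168.5 in ATF6aKO, 9487.5 and 8283 in ATF6bKO, against 10627 and 8719 in WT. The ATF6aKO difference was 0.74 and passed without ATF6aKO replicate 2, and the ATF6bKO difference of 0.57 passed when ATF6aKO replicate 1 or ATF6aKO replicate 2 was left out. It also passed in ATF6bKO with scaling to the 75th percentile (0.68). In the authors' deposited table the direction was opposite, at -3.4 and -3.65, and both passed (limma adjusted p = 0.0107 and 0.00841). Probe A_55_P2025078 was lower in the knockouts, at 8.41 and 8.30 in ATF6aKO, 8.49 and 8.38 in ATF6bKO, against 9.10 and 9.04 in WT. It fell by 0.71 in ATF6aKO and by 0.63 in ATF6bKO, and both differences passed over all probes (limma adjusted p = 0.00946 and 0.0177), where 41.9% and 36.5% of all probes were called. Probe A_52_P602091 was also lower in the knockouts, at 7.50 and 7.26 in ATF6aKO, 7.65 and 7.50 in ATF6bKO, against 9.11 and 7.81 in WT. Its fall of 1.08 in ATF6aKO passed (limma adjusted p = 0.0494), its difference of -0.88 in ATF6bKO did not (limma adjusted p = 0.0998), and WT replicate 1 was its highest array. With that array left out, the A_52_P602091 difference was -0.44 in ATF6aKO and the A_55_P2025078 difference was -0.60 in ATF6bKO, and neither passed. No direction for Csf1r as a gene can be given from these 3 probes.

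**Figure D2:**
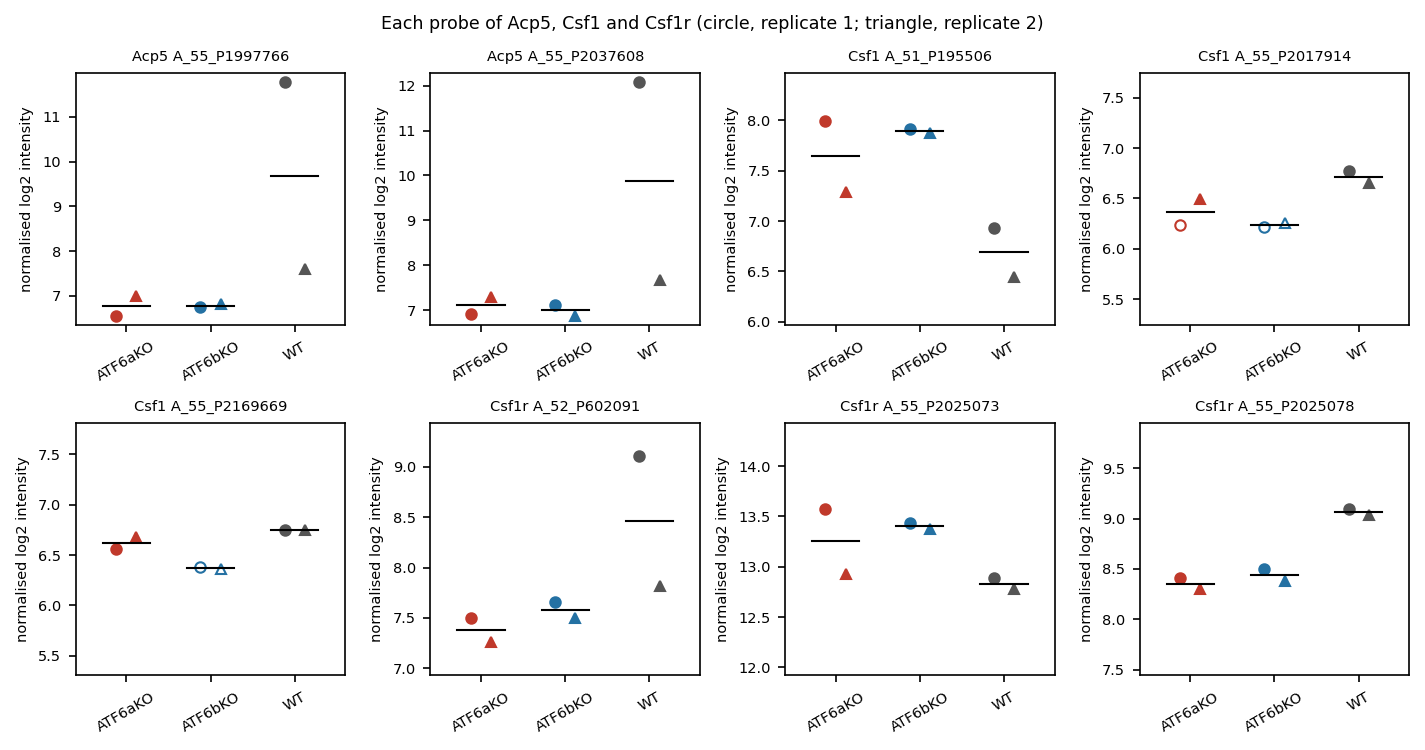
Normalised log2 intensity of each probe of Acp5 (2 probes), Csf1 (3) and Csf1r (3) on the 2 arrays of ATF6aKO, ATF6bKO and WT, with circles for replicate 1, triangles for replicate 2, bars for the group means and open symbols for spots not well above background. The vertical range differs between panels. Both Acp5 probes show the same pattern, whereas the Csf1 and Csf1r probes run in opposite directions.

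Tnfrsf11a, which encodes RANK, had log2 intensities of 9.80 and 10.05 in ATF6aKO, 10.13 and 10.08 in ATF6bKO, against 9.0 and 9.26 in WT. All 4 knockout arrays were above both WT arrays. The unnormalised spot intensities were 823 and 899 in ATF6aKO and 899 and 774 in ATF6bKO, against 752 and 755 in WT. They include a background of 37 to 38 on the knockout arrays and 16 to 18 on the WT arrays. Before normalisation the order of ATF6bKO replicate 2 and WT is therefore not settled, and the gaps of the other knockout arrays from WT are small. Most of the rise of Tnfrsf11a thus appears after normalisation between arrays. Tnfrsf11a rose by 0.79 ± 0.18 in ATF6aKO against WT (limma adjusted p = 0.0100) and by 0.97 ± 0.18 in ATF6bKO against WT (limma adjusted p = 0.00537), which is 1.73-fold and 1.97-fold. The rise in ATF6bKO held when any 1 array was left out, and that in ATF6aKO was 0.67 and no longer passed without ATF6aKO replicate 2.

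Tnfrsf11b, the gene of the RANKL decoy osteoprotegerin, had log2 intensities of 8.18 and 8.32 in ATF6aKO, 8.63 and 8.40 in ATF6bKO, against 8.37 and 8.99 in WT. Both ATF6bKO arrays lay between the 2 WT arrays, and both ATF6aKO arrays lay below them. The differences of -0.43 ± 0.23 for ATF6aKO (limma adjusted p = 0.164) and -0.16 ± 0.23 for ATF6bKO (limma adjusted p = 0.602) did not pass. The ATF6aKO difference was -0.74 and passed without WT replicate 1, and the ATF6bKO difference was 0.15 without WT replicate 2.

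Dcstamp, needed for the fusion of osteoclast precursors, had log2 intensities of 10.40 and 10.60 in ATF6aKO, 10.46 and 10.36 in ATF6bKO, against 9.83 and 9.76 in WT. The 2 arrays of each genotype were close together and every knockout array was above both WT arrays. The unnormalised spot intensities did not show this order, with 1246 and 1355 in ATF6aKO, 1115 and 944 in ATF6bKO, against 1386.5 and 1090 in WT, so the rise of Dcstamp appears after normalisation between arrays. Dcstamp rose by 0.71 ± 0.16 in ATF6aKO (limma adjusted p = 0.0112) and by 0.62 ± 0.16 in ATF6bKO (limma adjusted p = 0.0209). It no longer passed in ATF6aKO without ATF6aKO replicate 2 (0.61), or in ATF6bKO without ATF6bKO replicate 1 (0.57), ATF6bKO replicate 2 (0.67) or WT replicate 2 (0.58). In the authors' deposited table the direction was opposite, at -2.45 and -2.55 for Dcstamp and -1.05 and -1.34 for Tnfrsf11a. There the falls of Dcstamp passed (limma adjusted p = 0.00305 and 0.00270) and those of Tnfrsf11a did not. Ocstamp, its partner in fusion, had 7.26 and 7.54 in ATF6aKO, 7.40 and 7.59 in ATF6bKO, against 7.99 and 7.64 in WT. Its differences were -0.42 ± 0.20 (limma adjusted p = 0.123) and -0.32 ± 0.20 (limma adjusted p = 0.236). With the processed signal the Ocstamp difference in ATF6aKO was -0.81 and passed.

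**Figure D3:**
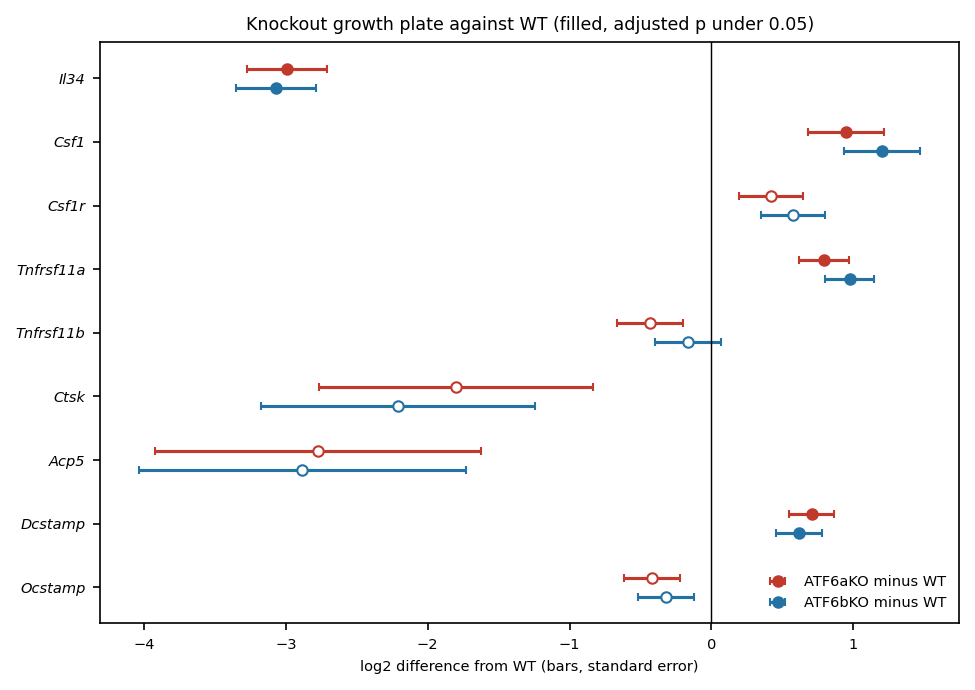
Log2 difference from WT (horizontal axis, bars are standard errors) of the 9 tested genes in ATF6aKO (upper point of each pair, red) and ATF6bKO (lower point, blue). Filled points passed an adjusted p of 0.05. Il34 is lowest, with standard errors of 0.28, and Ctsk and Acp5 have wider errors that come with the gap between the WT arrays.

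Ctsk and Acp5, the resorption genes among the 10, were high on 1 WT array only. Ctsk had log2 intensities of 6.46 and 6.44 in ATF6aKO, 6.16 and 5.92 in ATF6bKO, against 10.10 and 6.40 in WT. Acp5 had 6.92 and 7.29 in ATF6aKO, 7.12 and 6.87 in ATF6bKO, against 12.08 and 7.68 in WT. WT replicate 1 was therefore 3.69 above WT replicate 2 for Ctsk and 4.40 above it for Acp5, whereas the 2 arrays of a knockout differed by at most 0.37 for either gene. The second Acp5 probe followed the first, at 6.56 and 7.01 in ATF6aKO, 6.74 and 6.82 in ATF6bKO, against 11.78 and 7.59 in WT.

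Neither resorption gene passed. Ctsk had a difference of -1.80 ± 0.97 for ATF6aKO (limma adjusted p = 0.168) and -2.21 ± 0.97 for ATF6bKO (limma adjusted p = 0.109). Acp5 had -2.77 ± 1.15 for ATF6aKO (limma adjusted p = 0.0875) and -2.88 ± 1.15 for ATF6bKO (limma adjusted p = 0.0855). Ctsk was not well above background on either ATF6bKO array, which makes it at least 4.17-fold lower there than the WT mean, a mean that includes the high WT replicate 1. Without WT replicate 1 the Ctsk difference was 0.05 for ATF6aKO and -0.37 for ATF6bKO, and that of Acp5 was -0.57 and -0.68; without WT replicate 2 they were -3.65, -4.06, -4.97 and -5.09, all of which passed. The second Acp5 probe had -0.81 in both comparisons without WT replicate 1, and passed over all probes.

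Some genes of other bone cells were high on the same WT array. Over all genes, the 2 arrays of a genotype differed by more than 3 log2 units for 9 genes in ATF6aKO and 0 in ATF6bKO, against 68 (0.356%) in WT. The osteoclast protease Mmp9 had 6.91 to 7.12 on the knockout arrays, against 13.23 and 7.87 in WT. It was the only 1 of the 15 osteoclast resorption genes measured that differed by more than 3 between the WT arrays. The osteoblast collagen Col1a1 had 6.33 to 7.18 on the knockout arrays, against 13.65 and 6.74 in WT. Ibsp and Spp1, which encode proteins of bone matrix, split the WT arrays in the same way, at 13.33 and 8.02 for Ibsp and 12.12 and 7.21 for Spp1. Of the 10 osteoblast and osteocyte markers measured, 4 (Col1a1, Col1a2, Ibsp and Spp1) differed by more than 3 between the WT arrays, whereas Sost (-0.02), Mepe (-0.11) and Bglap2 (0.34) differed little. The summed intensity of these markers, to which the brightest add most, came to 6087 and 8245 in ATF6aKO, 5797 and 3041 in ATF6bKO, against 98186 and 3291 in WT. Sost was well above background on 4 of the 6 arrays, on both arrays of a genotype in WT only. Bglap, Dmp1 and Phex were not among the genes tested. Il34 did not follow this split, since its WT arrays differed by -0.14 (replicate 1 minus replicate 2). The part of bone-cell content in the Ctsk and Acp5 levels was not tested.

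**Figure D4:**
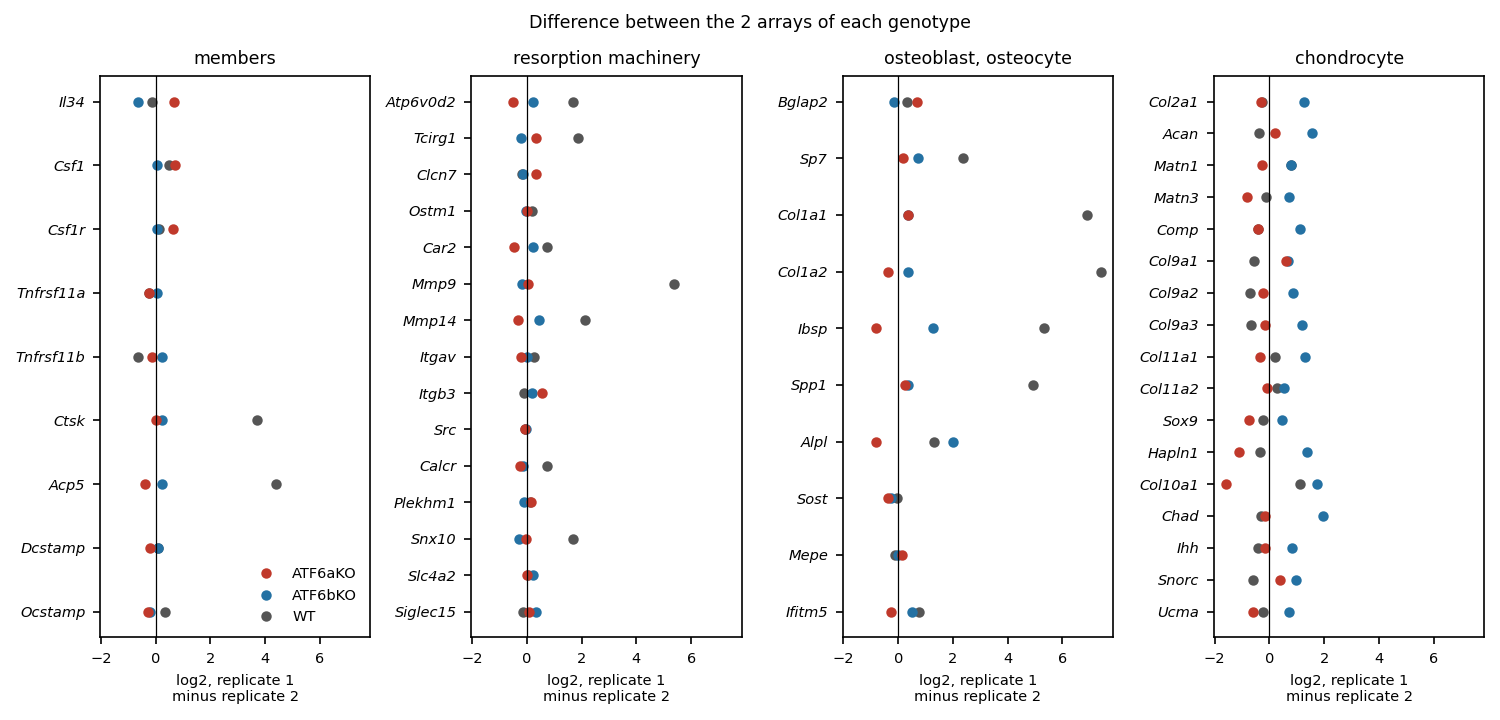
Difference in normalised log2 intensity between the 2 arrays of each genotype (replicate 1 minus replicate 2) for the 9 tested genes and for the genes of 3 lists, with ATF6aKO in red, ATF6bKO in blue and WT in grey. WT points lie far to the right for Ctsk (3.69), Acp5 (4.40), Mmp9 (5.37) and Col1a1 (6.91), while Il34, Tnfrsf11a and Dcstamp stay near 0.

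Promoter sequences, from RefSeq tables of assembly GRCm38.p6 (250 bases before to 50 bases after the transcript start), were held for 5 of the 10 genes and cover 7 starts. The names without an entry were Il34, Csf1r, Tnfrsf11b, Dcstamp and Ocstamp. Shown here are Ctsk and the third start of Acp5, the pair that stood high together on WT replicate 1, and Tnfrsf11a, which rose in both knockouts, with Csf1, whose 10-spot probe rose in both and whose other probes did not. Capitals mark matches to motifs of factors active in osteoclasts, namely GAGGAA, the core bound by PU.1, and CATGTG, the M-box core bound by MITF, each sought on both strands. The Ctsk promoter lies at chr3:95498960-95499259 on the + strand, that of Acp5 at chr9:22130549-22130848 on the - strand, that of Csf1 at chr3:107760420-107760719 on the - strand and that of Tnfrsf11a at chr1:105780473-105780772 on the + strand.
Ctsk: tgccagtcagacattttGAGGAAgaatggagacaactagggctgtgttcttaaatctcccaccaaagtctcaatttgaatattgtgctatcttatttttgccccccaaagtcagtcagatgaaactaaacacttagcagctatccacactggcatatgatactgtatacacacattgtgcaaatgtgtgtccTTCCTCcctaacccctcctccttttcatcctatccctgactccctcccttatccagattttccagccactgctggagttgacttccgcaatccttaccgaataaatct
Acp5: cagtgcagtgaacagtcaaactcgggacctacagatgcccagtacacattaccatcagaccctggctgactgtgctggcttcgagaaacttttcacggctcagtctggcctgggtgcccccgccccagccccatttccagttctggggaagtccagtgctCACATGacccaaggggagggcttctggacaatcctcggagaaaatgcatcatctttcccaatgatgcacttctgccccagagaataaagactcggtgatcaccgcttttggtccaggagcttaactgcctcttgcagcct
Csf1: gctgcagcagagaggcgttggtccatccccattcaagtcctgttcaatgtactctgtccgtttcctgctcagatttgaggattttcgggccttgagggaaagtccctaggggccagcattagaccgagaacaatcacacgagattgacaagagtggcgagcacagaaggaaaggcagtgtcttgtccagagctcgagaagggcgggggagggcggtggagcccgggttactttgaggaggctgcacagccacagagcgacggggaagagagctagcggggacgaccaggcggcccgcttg
Tnfrsf11a: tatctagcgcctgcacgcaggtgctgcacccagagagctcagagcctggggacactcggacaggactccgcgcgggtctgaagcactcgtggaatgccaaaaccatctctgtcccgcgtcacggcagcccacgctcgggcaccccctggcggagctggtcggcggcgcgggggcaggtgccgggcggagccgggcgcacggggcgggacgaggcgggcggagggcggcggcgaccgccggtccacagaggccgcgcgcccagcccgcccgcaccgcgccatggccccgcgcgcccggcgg

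The Ctsk promoter held GAGGAA at -233 on the + strand and at -58 on the - strand, a motif found in 28.3% of the 32851 promoters of the same length. The Acp5 promoter held CATGTG once, at -90 on the - strand, a motif found in 14.2% of them. Of the 3 Acp5 windows searched, only the third start held it. Sequences bound by ATF6 were sought as well: the ER stress element ERSE (0.119% of promoters), its shorter form ERSE-II (0.0365%) and TGACGT (7.51%), together with TGACTCA (5.20%), which AP-1 binds. The 2 ER stress elements both end in CCACG. None of these 4 was found in the 7 windows, which says only that the letters are not there. A match is a description of the letters and not of binding.

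Between the knockouts no difference passed. In ATF6aKO against ATF6bKO, 0 of 9 genes were called by limma (adjusted p from 0.936 to 0.998), beside a background of 0% of all genes, with 1169 of them at an unadjusted p under 0.05 and 0 of the 9. The difference for Il34 was 0.08 ± 0.28, for Csf1 -0.25 ± 0.27, for Tnfrsf11a -0.18 ± 0.18 and for Dcstamp 0.09 ± 0.16. For 3 of 9 genes (Ctsk, Tnfrsf11a and Tnfrsf11b) the arrays of the 2 knockouts did not overlap, where 36.9% of all genes did not. With SEs of 0.16 to 1.15 on the log2 scale, these values do not show that the knockouts are alike.

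Genes downstream of RANK and CSF1R were called lower at shares not far above the background of 22.3% for ATF6aKO and 20.3% for ATF6bKO. They were called higher less often than all genes, of which 20.3% rose in ATF6aKO and 17.3% in ATF6bKO. Of 27 measured, 7 fell and 1 rose in ATF6aKO against WT (median log2 difference -0.20), and 8 fell and 2 rose in ATF6bKO against WT (median -0.19), beside medians of -0.03 and -0.05 over all genes. Spi1, which encodes PU.1, a factor needed to form the macrophage and osteoclast lineages, had 6.64 and 6.54 in ATF6aKO, 6.54 and 6.70 in ATF6bKO, against 8.58 and 8.36 in WT. It fell by 1.88 in ATF6aKO (limma adjusted p = 0.000622) and by 1.85 in ATF6bKO (limma adjusted p = 0.000749). Nfatc1, the master factor of osteoclast differentiation, had 7.45 and 7.28 in ATF6aKO, 7.59 and 7.32 in ATF6bKO, against 8.46 and 7.92 in WT, with log2 differences of -0.83 and -0.74. Its WT arrays differed by 0.54, with WT replicate 1 the higher, and it was chosen after its values were seen. The gene that rose most was Prdm1, which encodes the repressor BLIMP1, by 1.04 in ATF6aKO and 1.09 in ATF6bKO. Traf6 was well above background on both arrays in WT only, so it could hardly be counted as higher. With WT replicate 1 left out, 5 fell and 2 rose for ATF6aKO, and 6 fell and 4 rose for ATF6bKO; with WT replicate 2 left out, 9 fell and 1 rose in each. The medians were -0.10 and -0.18 with WT replicate 1 left out and -0.31 and -0.25 with WT replicate 2 left out.

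Of 15 genes for acid secretion, attachment and matrix digestion by osteoclasts, 7 fell and 0 rose in ATF6aKO against WT and 6 fell and 0 rose in ATF6bKO against WT, with medians of -0.53 and -0.43, beside the same backgrounds of 22.3% and 20.3% lower. Tcirg1, a subunit of the osteoclast proton pump, had 7.30 and 6.98 in ATF6aKO, 7.39 and 7.59 in ATF6bKO, against 10.62 and 8.75 in WT. It fell by 2.55 in ATF6aKO and by 2.20 in ATF6bKO, and its WT arrays differed by 1.87 in the same direction as those of Ctsk. Plekhm1, which is needed for the ruffled border, had 6.04 to 6.24 on the knockout arrays, where it was not well above background, against 7.48 and 7.38 in WT. It was kept through WT alone, so it could hardly be counted as higher in a knockout. Without WT replicate 1, 5 of the 15 fell and 2 rose for ATF6aKO, and 7 fell and 2 rose for ATF6bKO; without WT replicate 2, 9 and 8 fell and 0 rose. The medians were -0.58 and -0.26 with WT replicate 1 left out and -0.70 and -0.78 with WT replicate 2 left out.

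Other signals that act on osteoclast formation moved both ways. Of 22 measured, 5 rose and 4 fell in each comparison with WT, with medians of 0.01 and -0.01. Over all genes 20.3% rose and 22.3% fell in ATF6aKO, and 17.3% rose and 20.3% fell in ATF6bKO. Pth1r, the receptor through which parathyroid hormone and PTHrP act on bone and cartilage, fell by 1.66 in ATF6aKO and by 2.63 in ATF6bKO. Il6ra, the interleukin-6 receptor, rose by 0.92 and 0.90. Il6 was not well above background on either WT array, so it could hardly be counted as lower in a knockout. When WT replicate 1 was left out, 3 rose and 3 fell for ATF6aKO and 5 rose and 2 fell for ATF6bKO, and without WT replicate 2 the counts were 3 and 5 for ATF6aKO and 4 and 4 for ATF6bKO. The medians were 0.13 in both with WT replicate 1 left out.

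Markers of the other cells in or around the tissue were counted in the same way, and slide cannot be told apart from genotype for them either. Beside them, 22.3% of all genes fell and 20.3% rose in ATF6aKO, and 20.3% fell and 17.3% rose in ATF6bKO. Of 15 macrophage and monocyte markers, 8 fell and 1 rose in ATF6aKO and 7 fell and 1 rose in ATF6bKO, with medians of -0.66 and -0.62. Mpeg1, a pore-forming protein of macrophages, had log2 differences of -1.13 and -1.15, and Lyz2, a lysozyme, of 2.35 and 1.84. The summed intensity of the list came to 134750 and 131295 in ATF6aKO, 152997 and 112736 in ATF6bKO, against 138971 and 127442 in WT. These sums overlapped, but Itgam alone makes up most of each. Its log2 intensities were 16.98 and 16.94 in ATF6aKO, 17.17 and 16.71 in ATF6bKO, against 17.03 and 16.90 in WT. The mean log2 intensity of the list did not overlap, with 8.67 and 8.63 in ATF6aKO, 8.74 and 8.63 in ATF6bKO, against 8.92 and 8.80 in WT. With WT replicate 1 left out, 7 fell and 3 rose for ATF6aKO and 6 fell and 3 rose for ATF6bKO, with medians of -0.40 and -0.53. Mrc1 and C1qc were not well above background on any knockout array. They were kept through WT alone, so they could hardly be counted as higher in a knockout.

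Of 17 chondrocyte markers, 14 rose and 1 fell in ATF6aKO against WT and 9 rose and 2 fell in ATF6bKO against WT, with medians of 2.89 and 1.28. The backgrounds here and for the osteoblast markers below were 20.3% higher and 22.3% lower for ATF6aKO, and 17.3% and 20.3% for ATF6bKO. Their summed intensity came to 121360 and 143733 in ATF6aKO, 75206 and 34671 in ATF6bKO, against 19862 and 25612 in WT. Matn1, a cartilage matrix protein, rose most in ATF6aKO, by 4.49, and Col10a1, the collagen of hypertrophic chondrocytes, in ATF6bKO, by 2.87, whereas Col11a2 had -0.90 and -1.55. Sox9 was not well above background on ATF6bKO replicate 2 or on either WT array. It was kept through ATF6aKO alone, so it could hardly be counted as lower there. Of the 10 osteoblast and osteocyte markers, 3 fell and 1 rose in each comparison, and Bglap2 had log2 differences of -1.78 and -1.36 and Alpl of 3.66 and 2.66. Without WT replicate 1, 2 of these 10 fell and 2 rose for ATF6aKO, and 1 fell and 2 rose for ATF6bKO, whereas without WT replicate 2, 7 fell and 1 rose in each. The part of tissue make-up in the Il34, Csf1, Tnfrsf11a and Dcstamp differences was not tested.

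The other lists held markers of vessels and blood cells, and have the same backgrounds of 22.3% and 20.3% lower and 20.3% and 17.3% higher. Of 12 endothelial markers, 7 fell and 0 rose in ATF6aKO and 5 fell and 1 rose in ATF6bKO; Plvap had log2 differences of -1.76 and -1.88, and Flt1 rose by 0.54 in ATF6bKO. Their summed intensity came to 3078 and 2639 in ATF6aKO, 2929 and 3024 in ATF6bKO, against 5938 and 5376 in WT. Of 9 neutrophil and marrow markers, 3 fell and 1 rose in ATF6aKO and 2 fell and 2 rose in ATF6bKO, and Lcn2 had log2 differences of -1.30 and -1.02 while Retnlg rose by 0.75 and 1.07. Of 5 red cell markers, 3 fell and 1 rose in each, and Hba-a1 had log2 differences of -5.71 and -5.44 and Epb42 of 0.86 and 0.87. WT replicate 1 stood apart here too, at 14.81 for Hba-a1 against 11.76 on WT replicate 2. The summed intensity of the red cell list came to 970 and 870 in ATF6aKO, 954 and 985 in ATF6bKO, against 30562 and 5319 in WT. On both WT arrays Hba-a1 alone makes up most of this sum. Leaving out either WT array changed the counts of the macrophage, chondrocyte, endothelial, neutrophil and red cell lists by at most 2 genes in a direction. Tie1, S100a8 and Hbb-bs were well above background on both arrays in WT only, so they could hardly be counted as higher in a knockout. Between the knockouts, 0 genes of any of these lists were called.

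The genes whose pattern over the 6 arrays was most like that of Il34, Csf1, Tnfrsf11a and Dcstamp were found by the root mean square distance between their deviations from the gene mean, on the log2 scale. For Il34 they were Adgrb2 (0.193), Gabrp (0.227) and Cmtm7 (0.259). Adgrb2 had log2 intensities of 9.39 and 9.07 in ATF6aKO, 8.87 and 9.03 in ATF6bKO, against 12.11 and 12.15 in WT, and like Il34 it separated knockout from WT arrays. For Csf1 they were Tesk2 (0.0843), Noxa1 (0.0923) and Mpv17l (0.119), all of which also had ATF6aKO replicate 2 as their lowest knockout array. For Tnfrsf11a they were Tmco5 (0.0294), Igsf11 (0.0416) and Defb14 (0.0512), and for Dcstamp they included Tpmt (0.0358). Each of the genes named here was called in both comparisons with WT, which their choice by likeness to called genes makes likely.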

How the data were processed

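The deposited scanner files give an intensity per spot, and the submitters' processing notes name Agilent Feature Extraction 10.7.1.1. The labels give Cy5 for every sample. Per the file headers, knockout arrays were extracted with 2 channels and a protocol set for Cy5 only, and WT arrays with 1 channel named green, so the red channel was used for knockouts and the single one for WT. The authors' deposited table of log2 values was used only as an alternative. Its knockout columns follow the green channel (r 0.998 to 0.999 between arrays, against -0.059 to 0.101 for red), and how it was centred is not given.

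Median spot and background intensities were corrected with normexp (offset 50, limma 3.58.1, R 4.3.3), taken to log2, averaged over spots without outliers (288 probes left out) and quantile normalised. Probes well above background on both arrays of a genotype were kept, and the brightest stood for its gene. A gene kept through WT alone could hardly be counted as higher in a knockout, in the lists as among all genes. Names came from RefSeq accessions and a GRCm38.p6 gene table (26582 probes, 20145 symbols). One limma fit (lmFit, eBayes) covered the 6 arrays, with Benjamini-Hochberg adjustment over 19122 genes. It was tested on simulated data. Where a gene was dim on both arrays of a group, the fold is a bound against each array's lowest signal well above background, or the gene's own signal where higher.

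The 10 genes, the gene lists and the tests were chosen with earlier results of these data known. The text names all 10 genes, the largest called rise and fall of each list, and the 3 nearest genes of each called member, passing over clone-like symbols; some of these nearest genes are not reported here. Col2a1, Mmp9, Col1a1, Col1a2, Ibsp, Spp1, Sost, Mepe, Nfatc1, Plekhm1, Itgam, and the genes named for low signal were chosen after their values were seen. The alternatives changed the background correction, scaling, probe summary, filter, variance model, replicate block, value table and the arrays included.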

Additional observations from a re-analysis of the deposited data

How the results depend on the processing

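The 2 arrays of a genotype limit every value, and leaving out an array leaves a lone one that is assumed to vary like the other groups. Il34 kept its call against WT throughout. Over the fits that leave out 1 array, called genes numbered 4682 to 8061 for ATF6aKO against WT (lowest without ATF6aKO replicate 2), 3080 to 7019 for ATF6bKO against WT (3080 and 3795 without either ATF6bKO array) and 0 to 8 between the knockouts (8 without ATF6aKO replicate 2). Called members numbered 3 to 5, 2 to 5 (2 without either ATF6bKO array) and 0. Scaling to the 75th percentile moved the median of all genes to 0.13 and 0.16 and the calls to 5163 higher and 3601 lower for ATF6aKO, and 4828 and 3053 for ATF6bKO, against 3886 and 4271, and 3313 and 3877. With a replicate block, 7594, 6630 and 0 genes and 4, 4 and 0 members were called. Arrays of the same number showed little shared deviation (r = -0.16, -0.07 and 0.20). With 2 arrays a genotype, these values cannot show whether the numbers pair the samples. The block changed no call of a member. Within the knockout slide alone, 0 genes passed in limma, with 1625 at an unadjusted p under 0.05.

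Directions against WT that turned were, for ATF6aKO, Csf1r at -0.054 (Feature Extraction's processed signal) and -0.46 (mean over probes) and Ctsk at 0.047 (without WT replicate 1), and, for ATF6bKO, Csf1r at -0.31 (mean over probes) and Tnfrsf11b at 0.15 (without WT replicate 2; leaving out 1 array gave -0.48 to 0.15). The authors' deposited table, in which the median of all genes is 0.85 in both comparisons and 6893 genes were higher and 2824 lower for ATF6aKO (6964 and 2930 for ATF6bKO), turned Csf1r (-3.4 and -3.65), Tnfrsf11a (-1.05 and -1.34), Tnfrsf11b (0.2 and 0.45) and Dcstamp (-2.45 and -2.55) in ATF6aKO and ATF6bKO, and Ocstamp (0.75) in ATF6aKO. The falls of Csf1r and Dcstamp passed there in both comparisons, and 1 member was called higher and 3 lower in each. In that table the Csf1r probe rests on a green processed signal of 4.05 to 11.5 in the knockouts, where the red one is 8505 to 11434. Calls were gained for Ocstamp in ATF6aKO (-0.81 with the processed signal), Csf1r in ATF6bKO (0.68 with 75th percentile scaling, 0.57 with trended variance or without either ATF6aKO array) and in ATF6aKO (0.74 without ATF6aKO replicate 2), Tnfrsf11b in ATF6aKO (-0.74 without WT replicate 1), and Ctsk (-3.65 and -4.06) and Acp5 (-4.97 and -5.09) without WT replicate 2. The processed signal moved Csf1 to 1.91 and 2.32. Calls were lost for Csf1 (mean over probes; 0.60 without ATF6aKO replicate 1 and 0.71 without WT replicate 2 in ATF6aKO; 1.19 and 1.22 without ATF6bKO replicate 1 or 2), Tnfrsf11a (0.67 without ATF6aKO replicate 2) and Dcstamp (0.61 without ATF6aKO replicate 2; 0.57, 0.67 and 0.58 in ATF6bKO without ATF6bKO replicate 1, ATF6bKO replicate 2 or WT replicate 2).

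Between the knockouts, where no difference passed, signs turned for Il34 (-0.05 in the authors' deposited table, -0.24 without ATF6bKO replicate 1, -0.25 to 0.41 when an array was left out), Csf1 (0.038 over probes, 0.05 in the authors' deposited table, -0.61 to 0.10 when an array was left out), Csf1r (0.25 in that table, -0.47 to 0.17 when an array was left out), Tnfrsf11a (0.28 in that table), Acp5 (-0.0090 without ATF6bKO replicate 2, -0.074 to 0.30 when an array was left out), Dcstamp (-0.047 with the processed signal, -0.013 to 0.19 when an array was left out) and Ocstamp (0.95 in that table, -0.24 to 0.043 when an array was left out). The cause was not tested for any of these.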
